A study of Mus musculus with 14 samples.

Results

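The gene expression of the adult mouse spleen was set against that of the embryonic day 14.5 (E14.5) fetal liver in wild-type animals of a C1qa cross. Sections of formalin-fixed, paraffin-embedded tissue were profiled with the 10x Genomics Visium assay, in which each barcoded spot of a slide captures the RNA of a small patch of tissue that can hold several cells of different types. The series holds 14 mouse sections of fetal liver, spleen and bone marrow. The comparison used 4 of them: spleens WT1 and WT2, labelled as 3 months of age, and fetal livers WT2 and WT4, from E14.5 embryos. For the spleens of this cross the paper's figure legend gives 2 months. All 4 carried the wild-type genotype, had no treatment, and came from crosses of C1qa heterozygous mice. Further sections served as a reading of the same contrast elsewhere. They were 2 spleens and 2 fetal livers of the C1qa knockout from the same crosses, of the same ages, and a purchased pair. That pair was 1 adult spleen and 1 E14.5 fetal liver from wild-type mice that the paper describes as purchased. Organ and age cannot be told apart in this design, since each spleen was adult and each liver fetal, and a replicate number shared by a spleen and a liver does not name a shared animal. Livers WT2 and WT4 came from different pregnant mice, and each has a knockout littermate that carries the same number. The sections are described as biological replicates, although the labels do not name the animals, so p-values are read as the spread between animals of a group.

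Spots over tissue entered where 1000 or more genes were detected. In fetal liver they also had to draw at least 0.5% of their unique molecular identifiers (UMIs, the molecules counted) from 10 hepatocyte genes: Alb, Afp, Apoa1, Apoa2, Ttr, Fgb, Fga, Ahsg, Serpina1a and Apob. These values chose the liver spots, so the 10 genes are described here without a test. The rule kept 1426 of 1430 in-tissue spots in spleen WT1, 1646 of 2009 in spleen WT2, 2190 of 2353 in fetal liver WT2 and 240 of 806 in fetal liver WT4, which is 5502 of 6598 spots in all. The median share of the 10 genes in the kept spots was 10.0% in liver WT2 and 1.49% in liver WT4. The spots nearest the 0.5% minimum held 0.546% inside and 0.345% outside it in liver WT2, and 0.505% and 0.459% in liver WT4. Outside the rule the median share was 0.0346% in WT2 and 0.00604% in WT4.

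The spleen is a secondary lymphoid organ: its white pulp holds B-cell follicles and T-cell zones, and its red pulp filters blood and recycles the iron of old red cells. The fetal liver at midgestation is the main site of red cell formation, where dividing erythroblasts lie among hepatoblasts that already secrete plasma proteins. Sections were therefore checked with Cd79a, a signalling chain of the B-cell receptor, and Alb, the albumin of hepatocytes. A Cd79a UMI was found in 99.2% of spleen WT1 spots and 93.9% of spleen WT2 spots, against 13.6% of the spots in liver WT2 and 36 of 240 in liver WT4. After each spot was thinned to 1000 UMIs, those shares were 78.3% and 78.9% in spleen and 1.23% and 0.417% in liver. Every kept liver spot held an Alb UMI, against 7.08% and 2.86% of the spleen spots, and after thinning 100% and 99.6% of the liver spots did, against 0.561% and 1.34% in spleen. The median UMIs per spot behind these shares were 13937.5 and 2293.5 in the spleens and 8876.5 and 68440.5 in the livers. Cd79a was thus frequent in the organ of its label, and Alb was rare in the spleens. The Alb share in the livers follows in part from the spot rule, which used Alb. Whether the low shares in the other organ came from free RNA or from cells was not tested. The maps show the B-cell list in the spleens and the 10 hepatocyte genes in the livers, spot by spot.

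**Figure D1:**
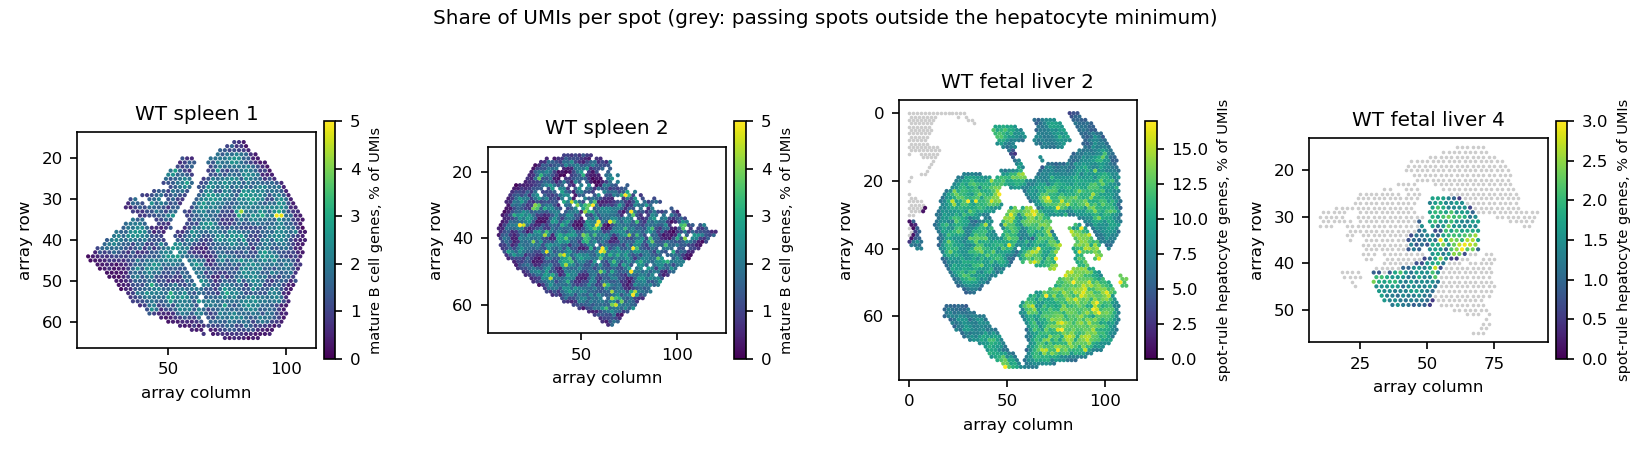
Spot maps of the 4 wild-type sections by array column and row, 1 point per kept spot. Colour gives the percent of a spot's UMIs from mature B-cell genes (spleens) or from the 10 hepatocyte genes (livers), with a scale for each section, and grey points passed the gene minimum but not the 0.5% minimum: liver WT4 kept 240 spots in its centre, and liver WT2 kept 2190.

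Raw counts were summed over the kept spots of each section, and the sums were compared across genes with edgeR's quasi-likelihood test (trimmed mean of M-values, TMM, scaling, Benjamini-Hochberg adjustment over all genes tested). The sums were 19934060 and 4225805 UMIs in spleens WT1 and WT2 and 19489176 and 16519311 in livers WT2 and WT4. Levels below are TMM-scaled CPM (each count relative to the scaled library total), in the order WT1, WT2 for spleen and WT2, WT4 for liver. A log2 fold change is spleen over liver, and ± is its standard error with n = 2 sections in each organ. Levels are per spot tissue, and in such summed samples fewer cells of a type and less RNA per cell cannot be told apart. A count assay that hybridises probes to each gene gives no scale shared between genes, so levels are compared between sections and not between genes.

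Of 18885 genes tested, 11689 differed at an adjusted p under 0.05: 6494 were higher in spleen (34.4% of those tested) and 5195 were lower (27.5%). Beyond a 2-fold change, tested against a log2 change of 1, 2917 genes were higher (15.4%) and 2569 lower (13.6%). The 2 spleens did not overlap the 2 livers in 82.7% of the genes tested. With 1 section left out, the lone section of that organ is assumed to vary like the other organ's pair, and the livers were less alike (Pearson r over genes 0.945) than the spleens (0.978). On those terms edgeR called 0 genes without spleen WT1 (8130 at an unadjusted p under 0.05) and 3324 without spleen WT2, against 13571 and 13790 without livers WT2 and WT4. All 116 named calls were lost without spleen WT1 and 57 without spleen WT2, while their fold changes kept their direction in 116 of 116 and moved by a median of 0.17 and 0.15 on the log2 scale. The split between higher and lower depended on the scaling: 55.6% of calls were higher in spleen with TMM, 43.7% with DESeq2, 77.9% with upper-quartile factors and 88.0% with total counts alone. It was 41.3% after the sections were thinned to equal depth, where 2289 genes were higher and 3254 lower. For the scalings the corresponding median over all genes was 0.19, -0.03, 0.96 and 1.42 on the log2 scale. The sign turned with the scaling in 1220 of the 11689 called genes (10.4%).

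The level of a gene also moved with its direction. Of 8782 genes under 10 CPM on average, 60.2% were called higher in spleen and 3.67% lower, with a median log2 fold change of 1.33. Of 10103 genes at 10 CPM or more, 11.98% were called higher and 48.2% lower, with a median of -0.86. The part of level in any single call was not tested, so each list below is read beside these shares, and members called against their list at under 10 CPM are named with their values. The plot by level shows the step at 10 CPM.

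**Figure D2:**
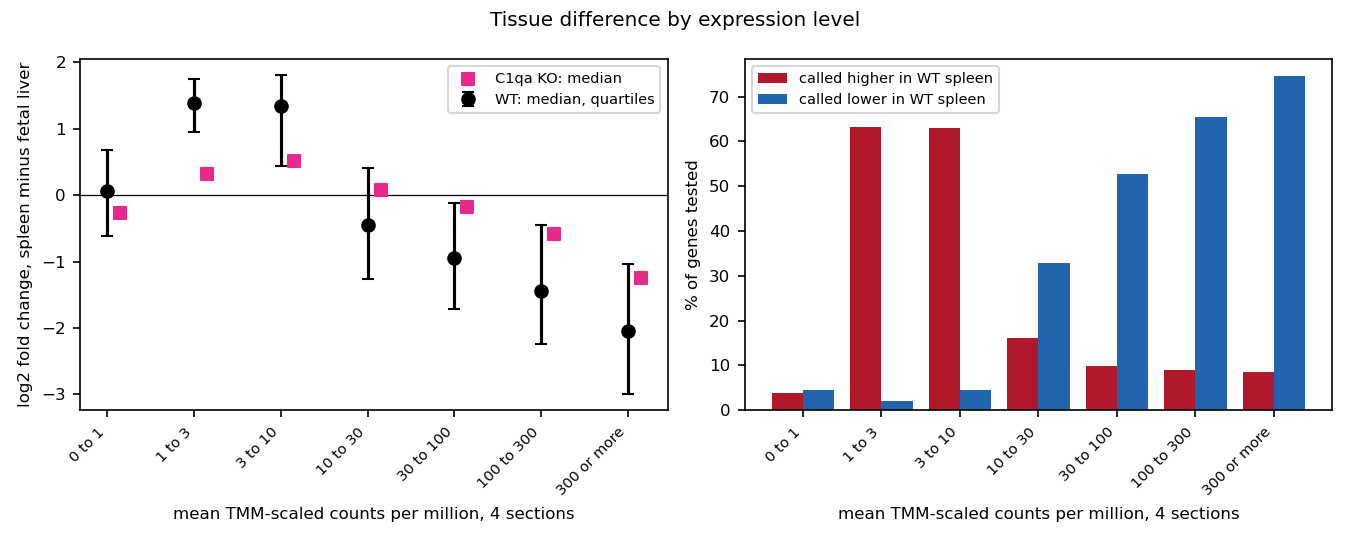
Difference by expression level. Left, median log2 fold change (spleen over fetal liver) of genes in bins of mean TMM-scaled CPM over the 4 wild-type sections, with quartiles as bars, beside the median in the C1qa knockout; right, percent of the genes tested in each bin that were called higher or lower in wild-type spleen. Higher calls dominate from 1 to 10 CPM and lower calls from 10 CPM up.

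B-cell genes were higher in spleen. All 21 mature B-cell genes tested were higher in spleen and 0 lower, with a median log2 fold change of 5.90 against 0.19 for all genes tested. Cd79a stood at 1269.6 and 1184 CPM in spleen and 32.1 and 3.13 CPM in liver, and both spleens lay far above both livers (log2 fold change 6.12 ± 1.17, adjusted p = 0.00816). Ighm, the heavy chain of the first antibody class made by a B cell, was at 3413 and 4659 CPM in spleen and 80.2 and 8.41 CPM in liver (log2 fold change 6.51 ± 1.22, adjusted p = 0.00786). Ighd, the heavy chain of the receptor that marks mature naive B cells, was at 862 and 729 CPM in spleen and 3.4 and 1.3 CPM in liver (log2 fold change 8.42 ± 0.64, adjusted p = 0.00359). The B-cell genes made up a median of 1.59% of a spot's UMIs in spleen WT1 and 1.62% in spleen WT2, with an interval from the 10th to the 90th percentile of 0.638% to 2.31% and 0.622% to 2.62%. Fcer2a, the low-affinity IgE receptor of follicular B cells, was at 72.2 and 61.3 CPM in spleen and 0.0971 and 0 CPM in liver (log2 fold change 10.35 ± 0.62, adjusted p = 0.00342). Coch was at 476 and 441 CPM in spleen and 0.388 and 0.535 CPM in liver (log2 fold change 9.91 ± 0.42, adjusted p = 0.0032). Of the genes of early B lymphopoiesis 3 of 8 were higher and 0 lower (median 0.67), a share near the 34.4% of all genes tested. Vpreb3, a partner of immunoglobulin chains in B-cell precursors, was at 15.8 and 12.7 CPM in spleen and 9.13 and 3.13 CPM in liver and did not pass the test (log2 fold change 1.23 ± 0.53, adjusted p = 0.0903). The surrogate light chain gene Igll1, at 5.43 and 5.59 CPM in spleen and 12.4 and 0.764 CPM in liver, did not pass either (log2 fold change -0.24 ± 1.04, adjusted p = 0.85). Igll1 was higher in 1 liver and lower in the other than in the spleens.

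Genes of the plasma cell list were also higher, 13 of 15 members with 1 lower (median 4.19). Whether plasma cells or other B cells made the antibody transcripts among them was not tested. Igkc, the constant region of the kappa light chain, was at 7169 and 11195 CPM in spleen and 16.1 and 10.4 CPM in liver (log2 fold change 9.44 ± 0.74, adjusted p = 0.00359). Igha, the heavy chain of the mucosal antibody class, was at 374 and 805 CPM in spleen and 2.72 and 2.29 CPM in liver (log2 fold change 7.88 ± 0.58, adjusted p = 0.00359). Jchain, the chain that joins antibody units into polymers, was at 285 and 543 CPM in spleen and 1.07 and 1.91 CPM in liver (log2 fold change 8.09 ± 0.59, adjusted p = 0.00359). Iglc1 and Iglc3 are lambda light chain genes whose probes may not separate them from other members of their family, so their values are uncertain. Iglc1 was at 334 and 505 CPM in the spleens and Iglc3 at 487 and 361 CPM. The list's exception was Sdc1, syndecan-1, a surface marker of plasma cells that epithelia also carry. It was lower at 21.1 and 25.7 CPM in spleen and 174 and 101 CPM in liver (log2 fold change -2.56 ± 0.36, adjusted p = 0.00484).

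Genes of antigen presentation were higher in spleen, and the class II list had the highest median of the immune lists. Class II molecules present peptides to helper T cells, and all 12 members tested were higher in spleen, each beyond 2-fold (median 7.17, range 2.75 to 8.78). Cd74, the invariant chain that guides class II molecules, was at 8769.7 and 8718 CPM in spleen and 33 and 6.73 CPM in liver (log2 fold change 8.78 ± 1.08, adjusted p = 0.00405). H2-Aa, an alpha chain, was at 968 and 1084 CPM in spleen and 11.6 and 2.14 CPM in liver (log2 fold change 7.24 ± 0.94, adjusted p = 0.00428). Its partner chain H2-Ab1 was at 1436 and 1489 CPM in spleen and 15.4 and 5.73 CPM in liver (log2 fold change 7.11 ± 0.66, adjusted p = 0.00359). H2-Ob, a chain of a class II molecule that tunes peptide loading in B cells, was at 710.0 and 691 CPM in spleen and 3.5 and 2.14 CPM in liver (log2 fold change 7.96 ± 0.45, adjusted p = 0.00342). Class I genes, which present peptides to cytotoxic T cells, were higher in 12 of 15 and lower in 0 (median 3.07). H2-D1 was at 1796 and 2309.9 CPM in spleen and 174 and 87.7 CPM in liver (log2 fold change 3.97 ± 0.51, adjusted p = 0.0042). H2-K1 was at 958 and 997 CPM in spleen and 125 and 85.1 CPM in liver (log2 fold change 3.22 ± 0.36, adjusted p = 0.00373). B2m, the light chain shared by class I molecules, was at 1271 and 1823 CPM in spleen and 851 and 229 CPM in liver, which did not pass the test (log2 fold change 1.52 ± 0.67, adjusted p = 0.0933).

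Promoters of the class II genes shown here carry the letters CTGATTGG, which contain the reverse complement of the CCAAT box bound by the factor NF-Y. The 300 bases are from RefSeq (GRCm38.p6), 250 before to 50 after the gene start, on the gene's strand, with the motif in capitals. H2-Aa lies at chr17:34287774-34288073, minus strand, with the motif starting 51 bases upstream, and H2-Eb1 at chr17:34305617-34305916, plus strand, 62 bases upstream.
H2-Aa: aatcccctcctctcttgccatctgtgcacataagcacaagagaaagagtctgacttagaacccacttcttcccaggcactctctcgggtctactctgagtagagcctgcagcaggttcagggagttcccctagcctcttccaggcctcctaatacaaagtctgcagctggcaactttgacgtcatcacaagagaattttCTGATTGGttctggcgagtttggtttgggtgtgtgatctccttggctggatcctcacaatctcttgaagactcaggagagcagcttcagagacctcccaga
H2-Eb1: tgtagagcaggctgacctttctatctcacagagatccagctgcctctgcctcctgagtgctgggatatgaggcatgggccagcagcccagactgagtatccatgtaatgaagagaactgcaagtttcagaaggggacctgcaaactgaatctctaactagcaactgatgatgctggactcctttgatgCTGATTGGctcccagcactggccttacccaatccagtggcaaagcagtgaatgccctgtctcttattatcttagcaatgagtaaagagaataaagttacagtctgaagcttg
Among all 32851 promoters of the table, 4.10% held CTGATTGG on either strand and 37.4% held CCAAT. Of the promoters of class II genes, 4 of 10 held CTGATTGG and 8 of 10 held CCAAT, and of class I genes 8 of 14 and 11 of 14. A match describes the letters of the window and not a bound site.

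T-cell genes were higher in 26 of 27 and lower in 0 (median 4.80). Trac, the constant region of the T-cell receptor alpha chain, was at 99.5 and 298 CPM in spleen and 4.66 and 3.06 CPM in liver (log2 fold change 5.69 ± 0.67, adjusted p = 0.00396). Trbc2, of the beta chain and near-identical to the other beta constant region, was at 198 and 543 CPM in spleen and 8.74 and 8.56 CPM in liver (log2 fold change 5.42 ± 0.60, adjusted p = 0.00366). The summed T-cell genes were 1466 and 3062 CPM in the spleens and 86.8 and 84.6 CPM in the fetal livers, so spleen WT2 stood above spleen WT1. Genes of natural killer and cytotoxic cells were higher in 13 of 13 (median 3.05). Ccl5, a chemokine of cytotoxic cells, was at 181 and 343 CPM in spleen and 4.27 and 0.917 CPM in liver (log2 fold change 6.68 ± 0.85, adjusted p = 0.00417). Genes of lymphoid zones, chemokines and their receptors, were higher in 14 of 18 and lower in 1 (median 2.83). Ltb, a lymphotoxin chain that organises lymphoid tissue, was at 723 and 819 CPM in spleen and 13 and 6.27 CPM in liver (log2 fold change 6.32 ± 0.52, adjusted p = 0.00359). Its receptor gene Ltbr was lower, at 20 and 22.8 CPM in spleen and 59.7 and 48.7 CPM in liver (log2 fold change -1.34 ± 0.26, adjusted p = 0.00834). Interferon-stimulated genes were higher in 15 of 19 and lower in 0 (median 2.21). Dendritic cell genes were higher in 10 of 13 (median 2.41). Irf8, a factor of dendritic and B cells, was at 238 and 294 CPM in spleen and 33.1 and 14.7 CPM in liver (log2 fold change 3.48 ± 0.47, adjusted p = 0.00457). The exception Snx22 was lower (log2 fold change -1.29 ± 0.43, adjusted p = 0.0424), and its sign turned with total counts alone.

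**Figure D3:**
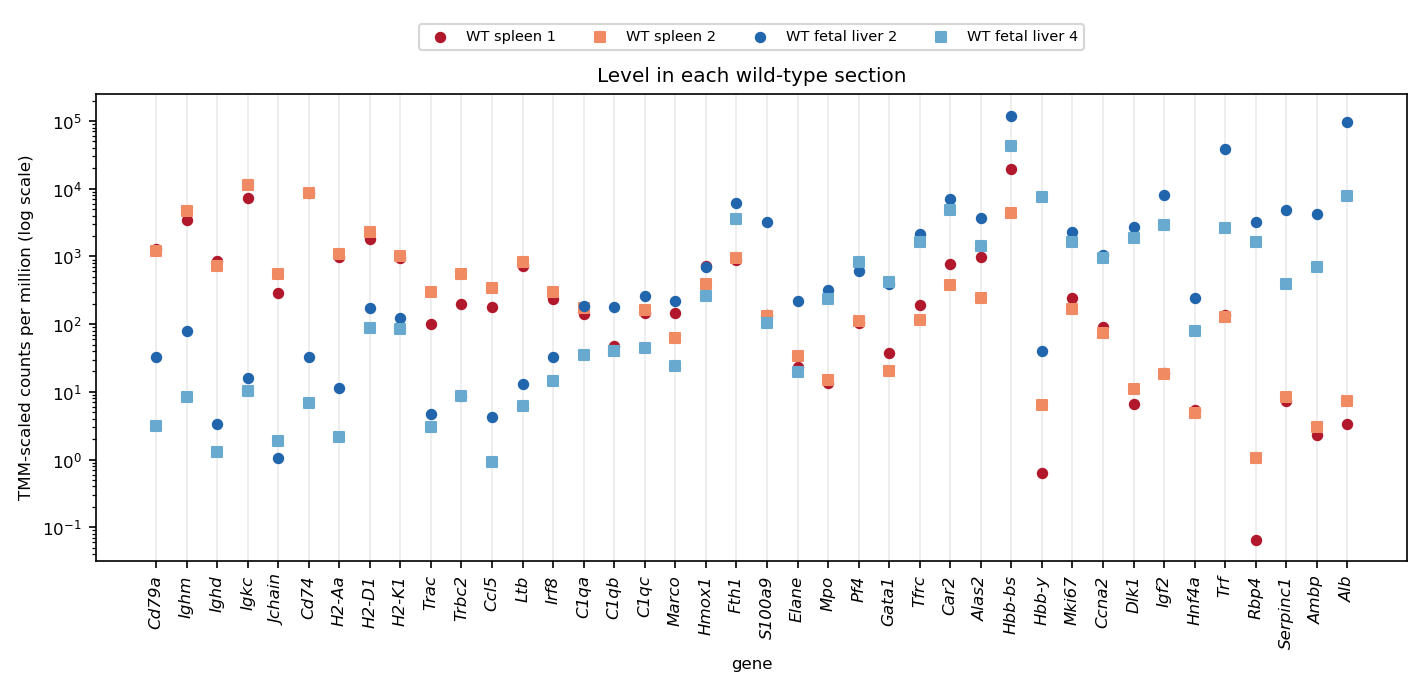
TMM-scaled CPM (log axis) of 40 described genes in each wild-type section, 1 point per section. Spleen points (red and orange) lie above the livers (blue) for the lymphoid genes on the left, mix with them for the C1q subunits, Marco and Hmox1, and lie below for red cell, fetal and hepatocyte genes on the right.

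Most macrophage genes did not pass the test. The C1q subunits, made by tissue macrophages, did not pass the test in any of 3 members: C1qa was at 143 and 171 CPM in spleen and 185 and 34.7 CPM in liver (log2 fold change 0.52 ± 0.73, adjusted p = 0.559). C1qb was at 48.2 and 39.9 CPM in spleen and 180.1 and 40.4 CPM in liver (log2 fold change -1.32 ± 0.67, adjusted p = 0.135). C1qc was at 144 and 163 CPM in spleen and 257 and 43.9 CPM in liver (log2 fold change 0.03 ± 0.76, adjusted p = 0.975). In each C1q gene liver WT2 was above and liver WT4 was near or below the spleens, so the organs overlapped. The values moved with the liver section: without liver WT2 the log2 fold change was 2.21 for C1qa and 1.84 for C1qc, and without liver WT4 it was -1.94 for C1qb. Each of these fits holds 1 liver, assumed to vary like the spleens, so no call is drawn from them. DESeq2 called C1qb lower (adjusted p = 0.0399), and total counts alone called C1qa and C1qc higher (adjusted p = 0.0122 and 0.0458). Of 18 macrophage genes 3 were higher and 0 lower (median 0.36), beside 34.4% and 27.5% of all genes tested. Axl, a receptor for dying cells, was higher at 203 and 205 CPM in spleen and 120.4 and 56 CPM in liver (log2 fold change 1.21 ± 0.41, adjusted p = 0.0452). Cd5l, a secreted macrophage protein, stood at 203 and 82.9 CPM in spleen and 435 and 28.7 CPM in liver and did not pass (log2 fold change -0.69 ± 1.13, adjusted p = 0.614). Genes of iron-recycling macrophages were split, 2 higher and 2 lower of 12 (median 0.07), beside the same shares of all genes tested. Blvrb, a biliverdin reductase also made by red cell precursors, was lower at 447 and 226 CPM in spleen and 2266 and 2157 CPM in liver (log2 fold change -2.72 ± 0.47, adjusted p = 0.00673). Fth1, the ferritin heavy chain, was lower at 890.4 and 955 CPM in spleen and 6199 and 3524 CPM in liver (log2 fold change -2.40 ± 0.49, adjusted p = 0.00978). Hmox1, the heme oxygenase that opens the heme ring, was at 721 and 394 CPM in spleen and 709.6 and 263 CPM in liver (log2 fold change 0.20 ± 0.57, adjusted p = 0.776). Marginal-zone macrophage genes were higher in 4 of 6 (median 2.08). The called members Cd209a, Cd209b, Cd209d and Siglec1 averaged near or under 10 CPM, and 60.2% of all genes under 10 CPM were called higher. Marco and Msr1 were not called, and their sign turned with the scaling. The lectin Cd209a was at 20.7 and 19.9 CPM in spleen and 1.65 and 1.68 CPM in liver (log2 fold change 3.60 ± 0.31, adjusted p = 0.00359). The scavenger receptor Marco was at 148 and 63.1 CPM in spleen and 220.4 and 24.1 CPM in liver and did not pass (log2 fold change -0.21 ± 0.97, adjusted p = 0.864).

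Red cell genes were mostly lower in spleen. Of the membrane and surface genes of erythroid cells, 19 of 22 were lower and 0 higher (median -3.44). Tfrc, the transferrin receptor through which erythroblasts take in iron, was at 191 and 116 CPM in spleen and 2167 and 1616 CPM in liver (log2 fold change -3.62 ± 0.45, adjusted p = 0.00409). Car2, a carbonic anhydrase, was at 765 and 372 CPM in spleen and 7135 and 4844 CPM in liver (log2 fold change -3.40 ± 0.59, adjusted p = 0.00664). Slc4a1, the band 3 anion exchanger, was at 366 and 161 CPM in spleen and 2433 and 1082 CPM in liver (log2 fold change -2.73 ± 0.62, adjusted p = 0.0133). All 10 erythroid transcription factors and the erythropoietin receptor, taken as 1 list, were lower (median -3.25). Gata1, the leading factor of the lineage, was at 37.5 and 20.5 CPM in spleen and 394 and 417 CPM in liver (log2 fold change -3.80 ± 0.40, adjusted p = 0.00359). Lmo2, its partner, was at 62.9 and 39.1 CPM in spleen and 502 and 404 CPM in liver (log2 fold change -3.15 ± 0.37, adjusted p = 0.00392). Foxo3, the member with the smallest change, was lower by log2 fold change -1.04 ± 0.34, adjusted p = 0.0395, and its sign turned with total counts alone. Heme synthesis genes were lower in 10 of 11 (median -3.44). Slc25a37, the mitochondrial iron carrier, was at 411 and 141 CPM in spleen and 4168 and 1989 CPM in liver (log2 fold change -3.48 ± 0.72, adjusted p = 0.00998). Alas2, which sets the rate of heme synthesis in red cell precursors, was at 987 and 239 CPM in spleen and 3678 and 1439.7 CPM in liver, with spleen WT1 nearest to the livers, and did not pass (log2 fold change -2.06 ± 0.82, adjusted p = 0.0716).

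The globins varied within each organ. Of the adult globins, 1 of 3 passed: Hbb-bt was at 5887 and 1209 CPM in spleen and 47977 and 38228 CPM in liver (log2 fold change -3.60 ± 1.00, adjusted p = 0.0246). Hbb-bs was at 19405 and 4377 CPM in spleen and 119917 and 43309 CPM in liver (log2 fold change -2.78 ± 1.12, adjusted p = 0.0747). Hba-a2 was at 29530.3 and 7965 CPM in spleen and 154782 and 52943 CPM in liver (log2 fold change -2.47 ± 1.11, adjusted p = 0.101), and neither passed, although the organs did not overlap. Spleen WT1 stood above spleen WT2 in all of them, and the near-identical beta genes may share probes. Within the spleens the adult globins took a median of 6.38% of a spot's UMIs in WT1 and 0.348% in WT2, with 90th percentiles of 21.8% and 6.65%. Embryonic globins, the first made in development, were lower in 3 of 4 (median -6.71), and the livers differed widely. Hbb-y was at 0.625 and 6.34 CPM in spleen and 40.7 and 7572 CPM in liver (log2 fold change -10.22 ± 2.87, adjusted p = 0.0251). Hba-x was at 5.26 and 7.55 CPM in spleen and 65.5 and 2292 CPM in liver (log2 fold change -7.54 ± 1.77, adjusted p = 0.0144). Hbb-bh1 was at 3.58 and 2.42 CPM in spleen and 14.8 and 349 CPM in liver (log2 fold change -5.88 ± 1.50, adjusted p = 0.0186). Hbb-y was thus far higher in liver WT4 than in liver WT2, and the list's median was -2.72 without liver WT4. The remaining gene, Hbb-bh2, was higher in spleen at 7.4 and 9.22 CPM in spleen and 2.82 and 3.82 CPM in liver (log2 fold change 1.30 ± 0.31, adjusted p = 0.0157), at a level under 10 CPM.

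Cell cycle genes were lower in spleen in 26 of 27 members, 26 of them beyond 2-fold (median -3.14). Mki67, the marker of cycling cells, was at 244 and 165 CPM in spleen and 2279 and 1659.8 CPM in liver (log2 fold change -3.27 ± 0.43, adjusted p = 0.00436). Ccna2, cyclin A, was at 89.2 and 74.5 CPM in spleen and 1063 and 962 CPM in liver (log2 fold change -3.63 ± 0.34, adjusted p = 0.00359). Cdk1, the kinase that drives mitosis, was at 184 and 137 CPM in spleen and 958 and 1057 CPM in liver (log2 fold change -2.65 ± 0.34, adjusted p = 0.00431). In each of them the livers lay closer to each other than to the spleens. Pcna, the clamp of replicating DNA, was called higher at 5.23 and 6.5 CPM in spleen and 2.23 and 2.9 CPM in liver (log2 fold change 1.16 ± 0.30, adjusted p = 0.019), a level under 10 CPM at which most calls were higher. The promoter of Cdk1 is shown because the CCAAT box recurs in it. It lies at chr10:69352863-69353162, minus strand, GRCm38.p6 from RefSeq, with the reverse complement of CCAAT in capitals at 208, 80 and 48 bases upstream of the start.
Cdk1: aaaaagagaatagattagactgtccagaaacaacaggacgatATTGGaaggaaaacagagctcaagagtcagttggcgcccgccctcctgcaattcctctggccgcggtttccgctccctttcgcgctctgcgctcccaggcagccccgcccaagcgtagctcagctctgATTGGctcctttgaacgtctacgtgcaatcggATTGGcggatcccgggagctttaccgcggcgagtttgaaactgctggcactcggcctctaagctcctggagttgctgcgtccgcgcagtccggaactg
CCAAT, on either strand, was in 21 of 25 promoters of the list (84.0%), against 37.4% of all promoters in the table.

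Genes of hepatocytes were the other end of the comparison. The 10 genes that chose the liver spots summed to 38.6 and 44 CPM in the spleens and 194083 and 19671 CPM in the fetal livers. Alb was at 3.39 and 7.25 CPM in spleen and 96031 and 7866 CPM in liver. Afp, the fetal counterpart of albumin, was at 7.14 and 9.97 CPM in spleen and 22272 and 5909 CPM in liver. Ttr, the carrier of thyroid hormone, was at 4.34 and 3.02 CPM in spleen and 24862 and 1426 CPM in liver. Liver WT2 held the higher level in each of these, and they are given without a test. The other plasma protein genes of hepatocytes are measured in spots chosen on those 10 genes and so are not independent of the choice. Of 24 tested, 20 were lower in spleen and 1 higher (median -7.87, or -7.48 with every liver spot kept). Rbp4, the carrier of retinol, was at 0.0658 and 1.06 CPM in spleen and 3198 and 1634 CPM in liver (log2 fold change -12.70 ± 1.40, adjusted p = 0.00366). Ambp was at 2.3 and 3.02 CPM in spleen and 4297 and 692 CPM in liver (log2 fold change -9.89 ± 1.21, adjusted p = 0.00403). Serpinc1, antithrombin, was at 7.23 and 8.46 CPM in spleen and 4909 and 389 CPM in liver (log2 fold change -8.40 ± 1.44, adjusted p = 0.00646). Vtn, vitronectin, had no count in either spleen and stood at 599.8 and 78.3 CPM in the livers, which is at least 4185-fold lower in spleen with 3 counts over both spleens as the floor, or 967-fold from liver WT4 alone. The member called higher, the apolipoprotein Apoa4, was at 3.85 and 3.32 CPM in spleen and 1.36 and 1.3 CPM in liver (log2 fold change 1.45 ± 0.30, adjusted p = 0.00993). Without liver WT2 the median of this list was -5.15.

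Hepatocyte transcription factors were lower in 12 of 14, 6 of them beyond 2-fold (median -2.07, or -0.69 with total counts alone). The sign turned with the scaling in 4 of the 14. These genes and the liver enzymes below are also measured in spots chosen on hepatocyte genes and so are not independent of the choice. Hnf4a, the main factor of hepatocyte identity, was at 5.36 and 4.83 CPM in spleen and 243 and 79.5 CPM in liver (log2 fold change -4.97 ± 0.63, adjusted p = 0.00413). Prox1 was at 23.3 and 21 CPM in spleen and 207 and 77.2 CPM in liver (log2 fold change -2.68 ± 0.51, adjusted p = 0.00819). Enzymes of the mature liver were mixed, 4 higher and 5 lower of 18, beside 34.4% and 27.5% of all genes tested. Their median of -0.78 turned positive without liver WT2 (1.04) and with upper-quartile or total-count scaling. Cps1, which begins the urea cycle, was at 6.94 and 7.1 CPM in spleen and 787 and 2.22 CPM in liver (log2 fold change -5.81 ± 2.24, adjusted p = 0.0657), where liver WT4 lay under both spleens. Cyp1a2 and G6pc were called higher at under 10 CPM, with 6.51 and 5.89 against 3.4 and 2.52 CPM and 4.44 and 6.19 against 1.07 and 1.76 CPM in spleen against liver. The promoters of Alb and Afp are shown because each carries GTTAAT, a core of the site of the hepatocyte factor HNF1. The 300 bases are from RefSeq on GRCm38.p6, plus strand, with the motif in capitals, starting 32 bases upstream in Alb (chr5:90460620-90460919) and 105 bases upstream in Afp (chr5:90490464-90490763).
Alb: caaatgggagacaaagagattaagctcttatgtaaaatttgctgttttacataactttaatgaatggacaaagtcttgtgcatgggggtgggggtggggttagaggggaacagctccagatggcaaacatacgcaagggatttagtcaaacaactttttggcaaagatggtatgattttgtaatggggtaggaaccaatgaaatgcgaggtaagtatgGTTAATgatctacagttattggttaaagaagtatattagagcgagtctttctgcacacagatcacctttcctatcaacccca
Afp: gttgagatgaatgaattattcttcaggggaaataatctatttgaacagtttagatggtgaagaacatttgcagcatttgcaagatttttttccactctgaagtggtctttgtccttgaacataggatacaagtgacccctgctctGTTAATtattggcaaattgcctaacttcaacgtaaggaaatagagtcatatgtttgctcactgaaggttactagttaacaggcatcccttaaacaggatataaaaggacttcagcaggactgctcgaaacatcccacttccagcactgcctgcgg
GTTAAT, on either strand, was in 5 of 10 promoters of the genes of the spot rule, in 3 of 20 of the other plasma protein genes and in 7.10% of all promoters in the table.

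Complement and iron transport genes, some of them made by hepatocytes and so not independent of the spot rule, were lower in part. Complement genes other than C1q were lower in 9 and higher in 2 of 23 (median -2.29, or 0.10 without liver WT2). Their share of lower calls lay between that of all genes tested (27.5%) and that of genes at 10 CPM or more (48.2%). C3, the central complement protein, was at 309.6 and 439.6 CPM in spleen and 3700.0 and 247 CPM in liver and did not pass (log2 fold change -2.40 ± 1.15, adjusted p = 0.117), and liver WT4 lay under both spleens. Cfb, which builds the alternative pathway's convertase, was lower (log2 fold change -2.64 ± 0.92, adjusted p = 0.0491). C7, of the membrane attack complex, was higher at under 10 CPM (5.75 and 6.95 against 1.55 and 1.45 CPM, spleen against liver), as was Cfd, adipsin (5.95 and 5.14 against 1.55 and 1.99 CPM). Iron transport and hepcidin genes were lower in 8 and higher in 1 of 14 (median -2.39). Trf, the plasma iron carrier transferrin, was at 136 and 126 CPM in spleen and 38209.6 and 2612 CPM in liver (log2 fold change -7.28 ± 1.51, adjusted p = 0.0101). Tmprss6, a protease that restrains hepcidin, was at 5.56 and 7.4 CPM in spleen and 266 and 24.5 CPM in liver (log2 fold change -4.50 ± 1.13, adjusted p = 0.0176). Bmp6, a signal that raises hepcidin, was higher at 16.3 and 13.9 CPM in spleen and 8.74 and 4.82 CPM in liver (log2 fold change 1.16 ± 0.38, adjusted p = 0.0411).

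Genes of fetal identity and imprinted growth control were lower in spleen in 16 of 17 members (median -6.13), 15 beyond 2-fold. They too are measured in liver spots chosen on hepatocyte genes, so members made by hepatocytes are not independent of the choice. Igf2, the fetal growth factor, was at 19.1 and 18.3 CPM in spleen and 8127 and 2910.1 CPM in liver (log2 fold change -8.20 ± 0.80, adjusted p = 0.00359). Dlk1, an imprinted regulator of growth, was at 6.61 and 10.9 CPM in spleen and 2722 and 1868 CPM in liver (log2 fold change -8.05 ± 0.58, adjusted p = 0.00359). Grb10, an imprinted brake on insulin signalling, was at 15.9 and 23.3 CPM in spleen and 1766 and 960.3 CPM in liver (log2 fold change -6.13 ± 0.54, adjusted p = 0.00359). Igf2bp1, an RNA-binding protein of fetal cells, was at 0.0658 and 0.151 CPM in spleen and 46 and 142 CPM in liver (log2 fold change -10.00 ± 0.92, adjusted p = 0.00359). The spleens lay close to each other at a low level in each of these. The organs did not overlap in any of the 17 members tested, against 82.7% of all genes tested without overlap.

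Blood precursors and the vessel wall gave mixed lists. Megakaryocyte and platelet genes were lower in spleen in 15 of 18 and higher in 1 (median -1.70). Pf4, a chemokine of platelet granules, was at 104 and 113 CPM in spleen and 609 and 832 CPM in liver (log2 fold change -2.74 ± 0.33, adjusted p = 0.00403). Selp, P-selectin, was higher at 6.12 and 6.04 CPM in spleen and 2.72 and 2.22 CPM in liver (log2 fold change 1.31 ± 0.27, adjusted p = 0.0105). Primary granule genes of myeloid precursors were lower in 4 of 7 (median -2.08), beside 27.5% of all genes tested and 48.2% of those at 10 CPM or more. Mpo, myeloperoxidase, was at 13.7 and 15.1 CPM in spleen and 323 and 237 CPM in liver (log2 fold change -4.28 ± 0.32, adjusted p = 0.00359). Elane, at 23.3 and 34.1 CPM in spleen and 222 and 19.7 CPM in liver, did not pass (log2 fold change -2.08 ± 1.02, adjusted p = 0.124), and liver WT4 lay under both spleens. Late neutrophil genes were lower in 1 and higher in 0 of 13 (median -0.98). S100a8, the calprotectin subunit, was the member that passed, at 48.3 and 36 CPM in spleen and 1682 and 78 CPM in liver (log2 fold change -4.38 ± 1.36, adjusted p = 0.0342). Its partner S100a9, at 138 and 131 CPM in spleen and 3247 and 105 CPM in liver, did not (log2 fold change -3.64 ± 1.42, adjusted p = 0.0688). Liver WT2 held the highest sum of these genes, 497 and 429 CPM in the spleens and 6911 and 294 CPM in the fetal livers, and the list's median was 1.51 without it. Stem and early progenitor genes were higher in 3 and lower in 8 of 17 (median -0.36), a lower share near the 48.2% of genes at 10 CPM or more. Kit, the stem cell factor receptor, was lower at 26.9 and 39.7 against 107 and 86.2 CPM (log2 fold change -1.54 ± 0.31, adjusted p = 0.00923). It did not pass beyond 2-fold (edgeR adjusted p = 0.0657) or in the knockout (-0.80, edgeR adjusted p = 0.0749), and its log2 ratio in the purchased pair was 0.02. Mllt3 was at 7.17 and 5.29 CPM in spleen and 164 and 108 CPM in liver (log2 fold change -4.43 ± 0.37, adjusted p = 0.00359). Spink2 was higher at under 10 CPM, at 2.73 and 2.87 CPM in spleen and 0.388 and 0.688 CPM in liver (log2 fold change 2.32 ± 0.42, adjusted p = 0.00744). Mast cell and basophil genes were higher in 4 of 8 (median 0.62), with Fcer1a at 6.77 and 7.25 CPM in spleen and 1.75 and 1.68 CPM in liver. These members lay near or under 10 CPM, where 60.2% of all genes were called higher.

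Endothelial genes were higher in 5 and lower in 8 of 21 (median -0.56). These counts stand beside 34.4% higher and 27.5% lower of all genes tested, and 11.98% and 48.2% of those at 10 CPM or more. Plvap, of fenestrated vessels, was higher at 240.1 and 228 CPM in spleen and 92.7 and 94.2 CPM in liver (log2 fold change 1.32 ± 0.25, adjusted p = 0.00818). Stab2, the scavenger receptor of sinusoids, was at 126 and 89.4 CPM in spleen and 108 and 61.4 CPM in liver and did not pass (log2 fold change 0.35 ± 0.37, adjusted p = 0.442). Egfl7 was lower at 51.2 and 42.9 CPM in spleen and 106 and 131 CPM in liver (log2 fold change -1.33 ± 0.27, adjusted p = 0.00933). Mesenchymal and smooth muscle genes were higher in 3 and lower in 5 of 15 (median -0.41), to be read beside the same shares. The fibrillar collagen Col1a1 was lower at 124 and 158 CPM in spleen and 451 and 497 CPM in liver (log2 fold change -1.75 ± 0.30, adjusted p = 0.00636). Col3a1 was lower at 120.4 and 132 CPM in spleen and 498 and 754 CPM in liver (log2 fold change -2.31 ± 0.35, adjusted p = 0.00519), and the muscle filament gene Des was higher at 51.5 and 66.3 against 16.9 and 20.4 CPM (log2 fold change 1.66 ± 0.27, adjusted p = 0.00607). Lysosomal cathepsins were higher in 1 and lower in 2 of 14 (median -0.17). The medians of the endothelial, stromal, cathepsin and stem cell lists turned positive with upper-quartile and total-count scaling, that of the late neutrophil list with total counts alone, and those of the C1q and iron-recycling lists turned negative with DESeq2 factors, so no direction is given for those lists.

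The 12 largest changes in each direction, at 50 CPM or more in the higher organ and outside the spot rule, ran from 7.96 to 10.35 on the log2 scale upward. Downward, 8 of the 12 had counts in spleen and ran from -9.89 to -13.81, and 4 had none (Vtn, Cyp2c68, Tff3 and Afm). Besides genes given above, the higher set held Pla2g2d, a secreted phospholipase, at 73.7 and 79.9 CPM in spleen and 0.194 and 0 CPM in liver (log2 fold change 9.66 ± 0.70, adjusted p = 0.00359). Ms4a4b, of T cells, was at 94.9 and 211 CPM in spleen and 0.583 and 0.382 CPM in liver (log2 fold change 8.31 ± 0.63, adjusted p = 0.00359). The lower set was mostly of liver secretory genes, which are likewise not independent of the spot rule. Itih2, a chain that binds hyaluronan, was at 0.0986 and 0.151 CPM in spleen and 2655 and 758 CPM in liver (log2 fold change -13.81 ± 1.10, adjusted p = 0.00359). Apom, a lipoprotein of plasma, was at 0.132 and 0.604 CPM in spleen and 1014 and 321 CPM in liver (log2 fold change -11.31 ± 1.09, adjusted p = 0.00359). Afm was at 141 and 15 CPM in the livers, at least 965.7-fold lower in spleen, or 184.9-fold from liver WT4 alone. Cyp2c68 was at 280.0 and 60.9 CPM in the livers, at least 2104-fold lower, or 751.8-fold from liver WT4 alone.

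**Figure D4:**
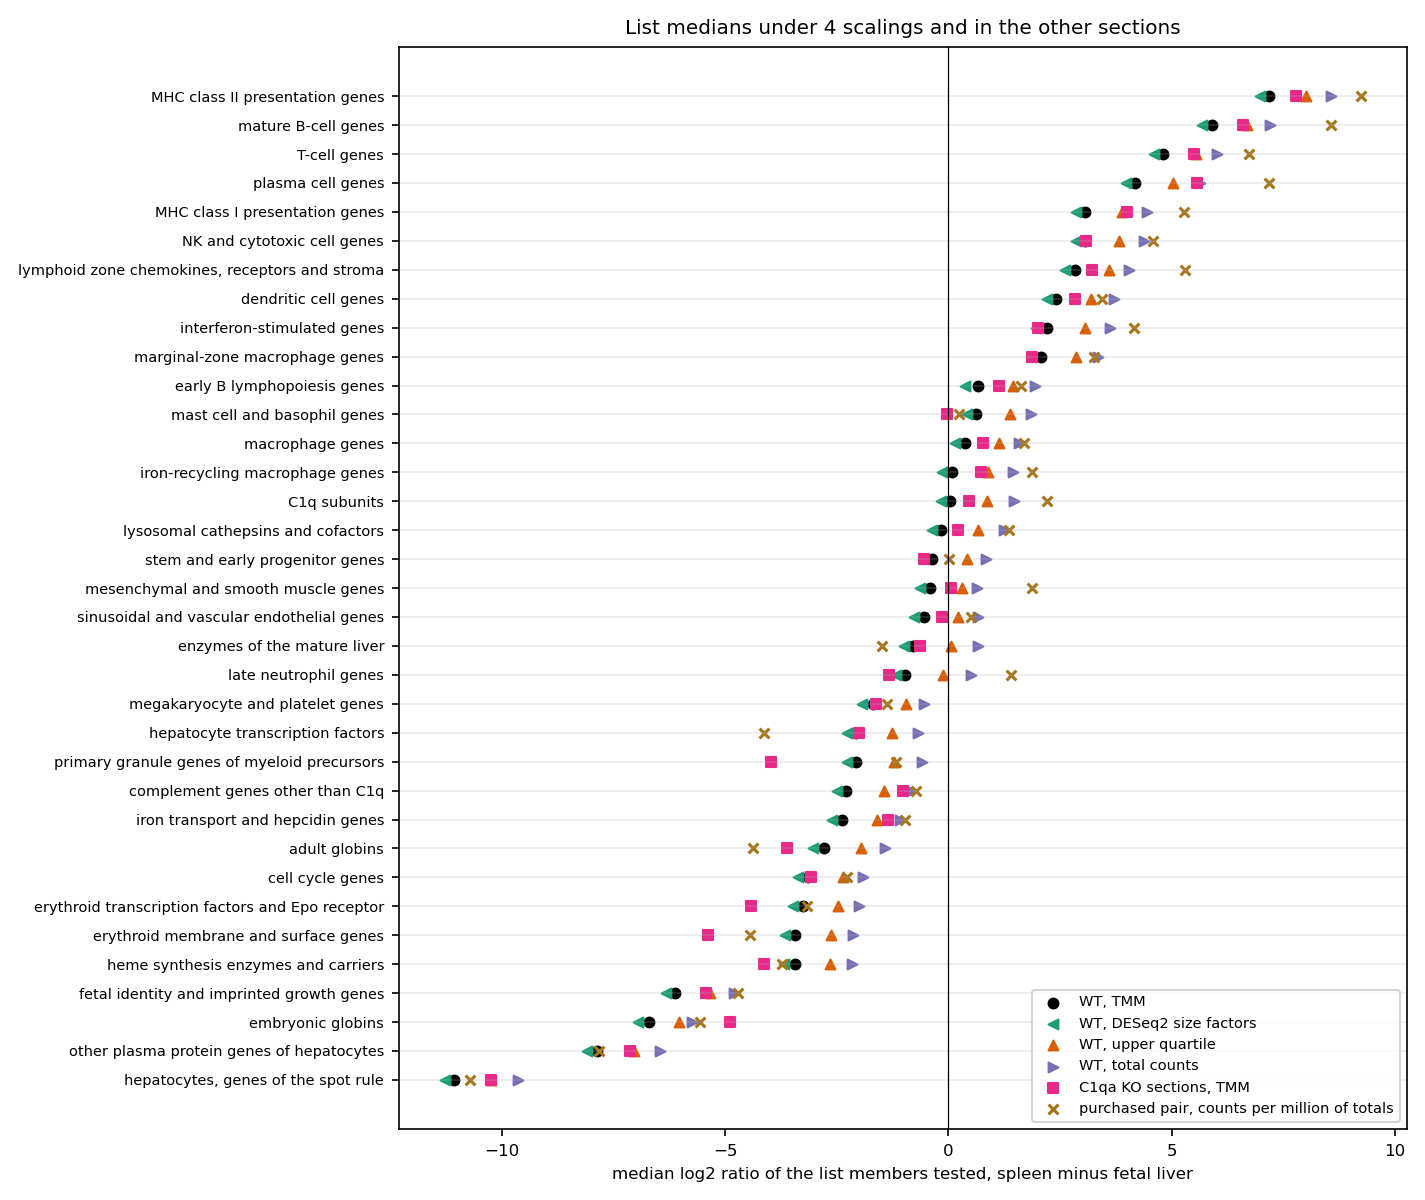
Median log2 ratio of each list in the wild-type sections under 4 scalings, in the C1qa knockout sections and in the purchased pair, 1 symbol per setting. The Y-linked and other-tissue lists are not drawn. Lists drawn with medians above about 2 or below about -2 keep their side of 0. Of those near 0, some do not, such as the C1q subunits and endothelial genes, and others do, such as macrophage and early B lymphopoiesis genes.

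Sex also moved with the organ in the wild-type sections, and genes of neighbouring tissue differed between sections of an organ. The 4 Y-linked genes tested (Ddx3y, Uty, Kdm5d and Eif2s3y) summed to 138.4 and 134.8 CPM in the spleens and 0.194 and 0.0764 CPM in the livers, so sex-linked differences and organ cannot be told apart in the wild-type sections. Uty had no count in either liver and stood at 32.6 and 29.5 CPM in the spleens, at least 241.9-fold higher. The median of the 4 genes was 10.03 on the log2 scale, or 8.52 with the 2 genes that had no count in a group at their bound. Exocrine pancreas genes, of which 9 of 12 were tested, summed to 48.6 and 623 CPM in the spleens and 42.3 and 20.9 CPM in the fetal livers. Of the 9 tested, 5 were called higher, beside 34.4% of all genes tested and 60.2% of those under 10 CPM. The elastase Cela2a was at 6.41 and 203 CPM in spleen and 3.79 and 2.06 CPM in liver (log2 fold change 5.16 ± 1.57, adjusted p = 0.0325), and the signal was that of spleen WT2. Skeletal muscle and cartilage genes summed to 61.7 and 66.6 CPM in the spleens and 92.1 and 245 CPM in the fetal livers. They were higher in 3 and lower in 3 of 11, beside 34.4% and 27.5% of all genes tested. Mylpf, a light chain of fast muscle myosin, was at 8.25 and 6.65 CPM in spleen and 54.4 and 71.8 CPM in liver (log2 fold change -3.07 ± 0.30, adjusted p = 0.00359). Their part in the results above was not tested.

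The C1qa knockout sections were compared under the same rules, 2 spleens against 2 fetal livers, and share no section with the wild-type comparison. C1qa itself had 1 or 2 counts in each of the 4 knockout sections, against 1906, 454, 4343 and 1135 counts in wild-type livers WT2 and WT4 and spleens WT1 and WT2. Of 18968 genes tested there, 2361 were higher in spleen (12.4%) and 2648 lower (14.0%). Of the wild-type calls tested in the knockout, 92.9% had the same sign, against 81.7% of all genes, and 4055 (34.7%) were also called in that direction, which is 81.0% of the knockout calls, while 4 were called in the opposite direction. The median of the class II list was 7.79 in the knockout against 7.17 in the wild type, of the mature B-cell list 6.60 against 5.90, of the cell cycle list -3.09 against -3.14, and of the fetal identity list -5.43 against -6.13. The erythroid surface list had a median of -5.38 in the knockout and -3.44 in the wild type. The interaction of organ and genotype called 0 of 19104 genes in the fit without the litters (edgeR, 2651 at an unadjusted p under 0.05). With the pregnant mouse of each liver pair as a replicate block, an alternative chosen after seeing the data, it called 2342 genes: the log2 fold change of spleen over liver was higher in the knockout in 1936 (10.1%) and lower, or more negative, in 406 (2.13%). Of the erythroid surface genes, 17 of 22 were lower and 0 higher in that fit, with Slc4a1 at -2.55 on the log2 scale (knockout minus wild type, edgeR adjusted p = 0.000594). Of the erythroid regulators 6 of 10 were lower and 2 higher, with Gata1 at -1.85 (edgeR adjusted p = 0.00155), and of the class II genes 0 of 12 and of the cell cycle genes 1 of 27 were called. All 4 Y-linked genes were lower and 8 of 10 pancreas genes higher, and the part of sex and of pancreas tissue in the other genes was not tested. Whether a gene differs between genotypes thus depended on the block. The Y-linked genes were not called in the knockout, where both spleens and 1 of 2 livers held them, and their wild-type calls are among those that were not repeated. Pancreas genes were called higher in all 9 tested in the knockout, in which the spleens summed to 3147 and 25100.6 CPM.

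The spleen and E14.5 fetal liver of the purchased pair, 1 section each, have no replicate and gave no test. Their Y-linked genes summed to 0 CPM in the spleen and 151.5 CPM in the liver, the reverse of the wild-type sections. The part of sex in this pair was not tested. The sign was that of the wild-type sections in 76.5% of the called genes and 86.3% of those beyond 2-fold, against 67.7% of all genes tested. The median log2 ratio was 9.24 for class II genes, 8.56 for mature B-cell genes, -4.45 for erythroid surface genes, -2.28 for cell cycle genes and -4.71 for fetal identity genes. The C1q subunits had a median of 2.21. These ratios use CPM of the totals with 0.5 added, so their scale differs from that of the values above.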

How the data were processed

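Visium sections of formalin-fixed tissue were analysed from the raw UMI counts per spot and gene that the authors deposited as matrices, with the deposited spot positions used as other values for the maps. Per the submitters' processing notes, the authors used Space Ranger and mm10, and the matrix headers of the cross name spaceranger 4.0.1. Probe-based counts may not separate genes of similar sequence, so those values are uncertain. Such genes are the adult beta globins, lambda light chain genes, Trbc, class I and class II genes, and Serpina1 and Cyp2c members.

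Spots were kept by the rule given in the report and raw counts were summed per section, since the section is the replicate. Genes passing edgeR's filterByExpr were fitted with TMM factors by edgeR 4.0.16 (glmQLFit, glmQLFTest, limma 3.58.1, R 4.3.3) on the groups compared, adjusted by Benjamini-Hochberg over all genes tested, with a threshold of 0.05. DESeq2 1.42.0, upper-quartile factors, no low-count filter, other spot rules, equal depth by thinning, a test beyond a log2 change of 1 and leaving out each section were the alternatives, and scaling by total counts alone was added after seeing the data, as was a replicate block for the litters of the 4 livers of the cross. Livers of one number are littermates, and their deviations correlated across genes (Pearson r = 0.583), while those of same-numbered spleens, whose litters are not given in the sources used here, did not pair (r = 0.0581). The scripts were tested on simulated data. Summed depth was 4225805 to 19934060 UMIs per section, and intervals and floors cover counting error only. The floor for a group at 0 was 3 counts over the group.

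The 39 gene lists (547 of 570 listed genes in the tables) and the members were chosen with earlier results of these data known. Named genes were the markers Cd79a and Alb, in each list up to 3 tested members of the highest mean CPM and up to 2 called against the list's direction, every member of lists of 5 or fewer, and the 12 largest changes in each direction with at least 50 CPM in the higher organ. Class II and other sequences came from RefSeq promoters of GRCm38.p6. H2-Eb1 is shown for its promoter alone.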

Additional observations from a re-analysis of the deposited data

How the results depend on the processing

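Of the 11689 genes called, 5543 were called after thinning to equal depth and 5486 beyond a log2 change of 1, and leaving out 1 section gave 0 to 13790. The knockout count of 5009 was 2505 beyond a log2 change of 1 and 2445 to 10267 with 1 section left out. DESeq2, upper-quartile factors, total counts alone, no low-count filter, all liver spots, a hepatocyte minimum of 2%, no gene minimum, a joint fit of 8 sections and dropping the 10 rule genes kept both counts within 1.5 times. Among 116 named calls, 111 held with DESeq2, 89 with all fetal liver spots, 99 after thinning, 109 with upper-quartile factors and 105 with total counts alone.

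List medians that changed sign were, with upper-quartile factors, mature liver enzymes (0.059), stem cell genes (0.43), endothelium (0.21), stroma (0.30) and cathepsins (0.67). With total counts alone they were mature liver enzymes (0.66), stem cell genes (0.84), late neutrophil genes (0.50), endothelium (0.66), stroma (0.64), cathepsins (1.26) and muscle and cartilage (0.17), with Foxo3 (0.25) and Snx22 (0.047). DESeq2 turned the C1q subunits (-0.17) and iron recycling (-0.14). All liver spots turned cathepsins (0.011), gut, lung, skin and nerve genes (-0.34), Des (-1.49) and Myh11 (-0.034), thinning turned cathepsins (0.12), and the 2% minimum turned muscle and cartilage (0.036). With each section left out in turn, the medians ran from -1.54 to 1.04 for mature liver enzymes, -1.80 to 1.51 for late neutrophil genes, -3.02 to 0.10 for complement and -0.71 to 0.89 for cathepsins, each highest without liver WT2. They ran from -0.66 to 1.84 for the C1q subunits, -0.37 to 1.27 for iron recycling, -0.87 to 0.074 for stroma and -1.67 to 1.25 for muscle and cartilage. Iron recycling also turned without spleen WT1 (-0.20), and the C1q subunits without spleen WT2 (-0.048). The cause was not tested. Total counts alone was chosen after seeing the data. The interaction of organ and genotype, 0 genes without a block, called 2342 with the livers' litter as a replicate block, chosen after seeing the data. Spleen against liver was not paired, since a shared number is of different animals. Spleen WT2 was the shallowest, with 4225805 UMIs.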

Other observations

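Genes of gut, lung, skin and nerve, a check of other tissue, were higher in spleen in 4 and lower in 2 of 14 (median log2 fold change 0.55). Of all genes tested, 34.4% were higher and 27.5% lower. Fabp2, an intestinal fatty acid binding protein, was listed at 0 and 0.151 CPM in spleens WT1 and WT2 and stood at 19.3 and 11.4 CPM in livers WT2 and WT4 (log2 fold change -8.69 ± 0.92, adjusted p = 0.00361). Krt8, a keratin of simple epithelia, was at 6.12 and 5.14 CPM in the spleens and 99.2 and 26.3 CPM in the livers (-3.46 ± 0.67, adjusted p = 0.00849). Both genes were measured in liver spots chosen on hepatocyte genes and so are not independent of the choice. Whether they came from hepatocytes or from other tissue was not tested. Tff3, a secreted trefoil peptide, had no count in either spleen and stood at 162.9 and 1.38 CPM in the livers, at least 1014-fold lower in spleen, or 16.98-fold from liver WT4 alone.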
